A study of Mus musculus with 14 samples.

Results

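Expression of 8 genes of the complement system was followed across mouse bone marrow cells after 3 forms of irradiation: the components C2, C3, C4b, Cfb, Cfd and Cfp and the regulators Serping1 and Cd55. They were taken by gene name from the 55335 genes of the deposited count table, and all 8 of 8 were among the 21509 genes that passed the filter on low counts. The mice carried Cdh5 Cre and Rosa26 TdTomato in every group, so that cells in which the Cdh5 promoter is or was active glow red. Marrow cells were sorted as Lineage-, CD45- and TdTomato+ and labelled endothelial. The 14 libraries comprised 4 from untreated mice, 5 taken after total body irradiation from a caesium source (TBI, 500 cGy), 3 after non-targeted radioimmunotherapy, in which an IgG antibody without a target carried the radionuclide (IgG RIT, 20 µCi), and 2 after CD45-targeted radioimmunotherapy (CD45 RIT, 20 µCi). Cells were harvested 8 days after treatment. TBI replicate 2 was not analysed here, and the ages of the mice are not given in the sources used here.

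Complement is a chain of plasma and cell-surface proteins that tags targets for uptake and recruits immune cells. The classical and lectin pathways start with the C1 complex or with sugar-binding proteins, cut C4 and C2, and so form the enzyme that cleaves C3. The alternative pathway reaches C3 through factor B (Cfb), factor D (Cfd) and properdin (Cfp), and regulators such as C1 inhibitor (Serping1) and decay-accelerating factor (Cd55) hold the chain in check. The liver supplies most complement protein in blood, but fibroblasts, adipocytes and myeloid cells also transcribe parts of it, and inflammatory cytokines are known inducers of C3, Cfb, C4 and Serping1.

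Total counts ranged from 16412779 to 31077588 per library. CD45 RIT replicate 2 had counts for 17700 genes, replicate 1 for 20994 genes and every other library for at least 21660. The endothelial label was only partly borne out. Cdh5 itself had at most 6 counts in an untreated library, at most 5 after TBI and none after either RIT, and 7 of 20 endothelial markers were at 0 in both CD45 RIT libraries. The 20 summed to 182 to 238 CPM in untreated and 117 to 396 CPM in CD45 RIT libraries. Kdr (1 and 2390 counts), Flt4 (0 and 1306 counts), Plvap and Esam had higher means in CD45 RIT than in untreated libraries. The markers with the highest untreated means went the other way. Icam2 averaged 46.6 CPM in untreated and 0 CPM in CD45 RIT libraries, Pecam1 44.3 and 0.279 CPM, and Egfl7 44.1 and 15.4 CPM. Summed markers of other cells differed between the groups. In the order untreated, TBI, IgG RIT and CD45 RIT, 15 stromal markers (Cxcl12, Lepr, Col1a1 and others, none of them at 0 in any library) summed to 2866 to 6992, 926 to 1933, 455 to 1519 and 49489 to 77179 CPM (counts scaled to a common library size). In the same order 13 neutrophil markers summed to 8095 to 9499, 97.2 to 925, 649 to 845 and 1.28 to 236 CPM. TBI replicate 6 resembled the IgG RIT libraries in its erythroid sum (206710 CPM, against 23596 CPM in the lowest TBI library and 155691 to 177150 CPM in IgG RIT). In the library names TBI replicates 4, 5 and 6 were numbered 8, 9 and 10, and the RIT libraries 11 to 16. No break in the numbers sets TBI replicate 6 apart from replicate 5. The labels name no batch. The untreated libraries were numbered 2 to 7, so in RIT against untreated an effect of processing order cannot be told apart from treatment.

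**Figure D1:**
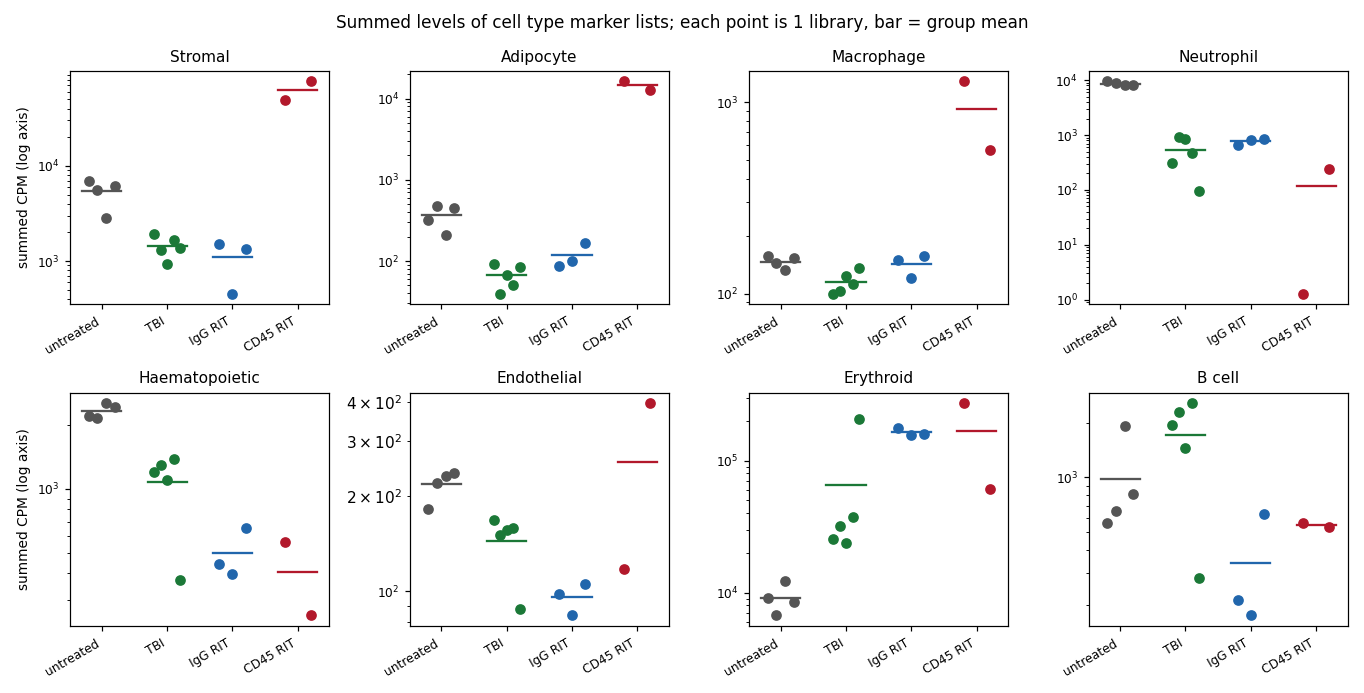
Summed CPM of 8 lists of cell type markers (vertical log axes) in each library, by treatment group; each point is 1 library and each bar a group mean. The stromal and adipocyte sums of both CD45 RIT libraries lie above those of all other libraries, and the neutrophil sums of the untreated libraries lie above those of all treated libraries.

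Values of single genes below are CPM on library sizes scaled by TMM, a factor that evens out differences in RNA composition. A gene was called where the adjusted p of edgeR's quasi-likelihood test over all 21509 genes was under 0.05. SE stands for the standard error of a log2 fold change. Nothing in the labels says that the libraries came from separate mice, so p-values measure only the spread between these samples.

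Across the 8 genes, CD45 RIT stood apart from the other treatments. Against untreated libraries, C2, C4b, Cfb, Serping1 and Cd55 rose after CD45 RIT and none fell. C4b and Serping1 fell after TBI, and C2 and Serping1 fell after IgG RIT, where Cd55 rose. Thus 2 of 8 were called after TBI, where 4.31% of all genes were called (3.38% lower and 0.921% higher). After IgG RIT 3 of 8 were called, where 16.4% of all genes were called (10.7% lower and 5.75% higher), and after CD45 RIT 5 of 8, where 33.1% of all genes were called (14.5% higher and 18.6% lower). The median log2 fold change of the 8 genes was -1.96 after TBI, -1.18 after IgG RIT and 3.53 after CD45 RIT, beside medians of -0.16, -0.42 and -0.37 over all tested genes. Of all called genes, 35.0% were higher after IgG RIT (46.7% with RLE factors, another scaling, and 14.5% without scaling) and 43.8% after CD45 RIT (52.8% with RLE factors and 22.7% without scaling). In these bulk samples, fewer cells of a type and less RNA per cell cannot be told apart.

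**Figure D2:**
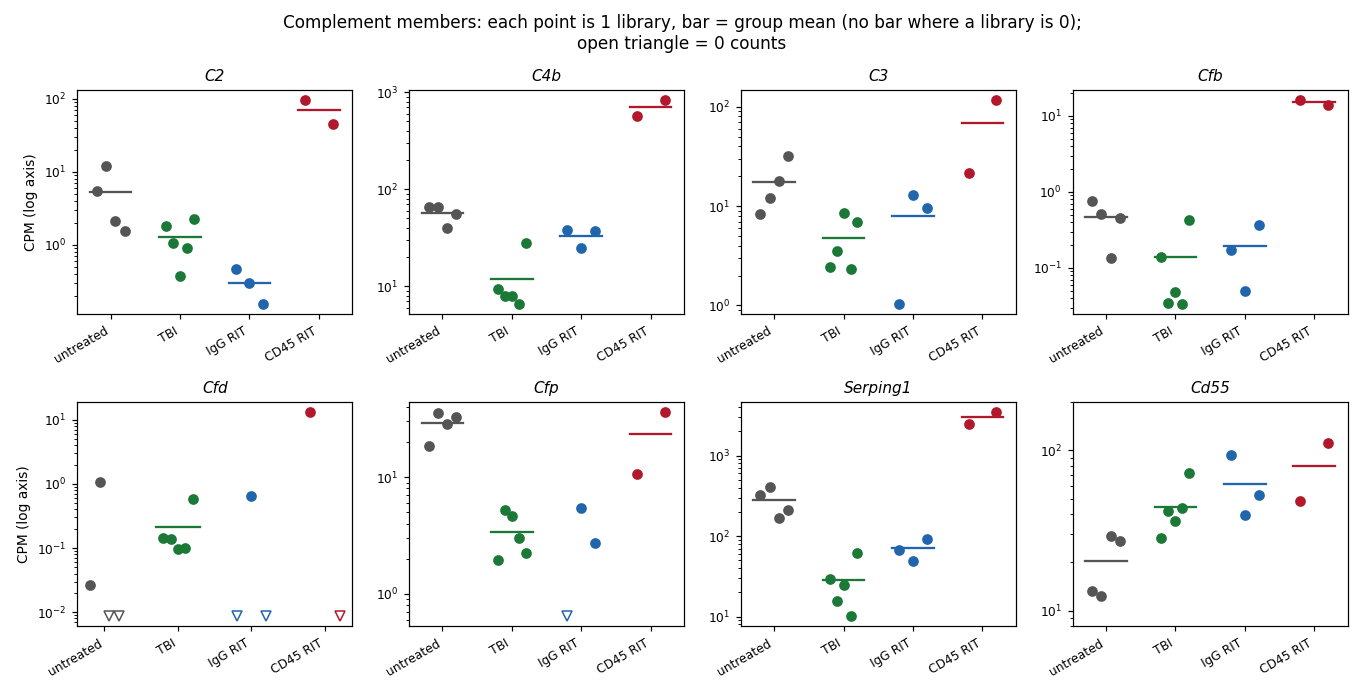
CPM of the 8 complement genes (vertical log axes) in each library, by treatment group; each point is 1 library, bars are group means and are left out where a library is at 0, and open triangles stand for 0 counts. Both CD45 RIT libraries lie above every other library for C2, C4b, Cfb and Serping1, but not for C3, Cfd, Cfp or Cd55.

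The classical pathway members C4b and C2 lie close together on GRCm38 chromosome 17 in the major histocompatibility region, where C4b (ENSMUSG00000073418.4) spans 34728380 to 34743882 and C2 (ENSMUSG00000024371.14) spans 34862604 to 34898265, both on the minus strand. C4b encodes complement C4, whose cleavage exposes the bond that ties complement to a surface. The mouse genome holds a near copy, C4a (chromosome 17, 34809092 to 34823464), annotated here as lncRNA, and reads must be assigned between the copies. Over 5378 aligned columns their transcripts were 95.9% identical, and 35.2% of the 50-base stretches of the C4b transcript also occurred in C4a. The stretch with 13 differences in 60 bases, which starts at base 2761 of the C4b transcript and ends at base 2820, shows what separates reads of the copies. Capitals mark the bases that differ, and both sequences come from the GENCODE M21 transcripts.
C4b: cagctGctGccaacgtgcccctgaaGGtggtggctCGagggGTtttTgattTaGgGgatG
C4a: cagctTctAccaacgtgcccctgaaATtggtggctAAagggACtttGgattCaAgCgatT
C4a had between 0 and 16 counts in every library, whereas C4b had between 166 and 17277. How reads common to both were counted is not given in the sources used here, and summing the copies left the C4b call the same in all 6 comparisons.

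C4b was at 65.4, 66.3, 39.5 and 55.2 CPM in untreated replicates 1 to 4, and at 9.34, 7.91, 7.91, 6.60 and 28.0 CPM in TBI replicates 1, 3, 4, 5 and 6. It was at 37.7, 25.1 and 37.0 CPM in IgG RIT replicates 1 to 3 and at 569 and 831 CPM in CD45 RIT replicates 1 and 2. All TBI and all IgG RIT libraries were below the lowest untreated library, and both CD45 RIT libraries were above the highest. The fall after TBI was called (log2 fold change -2.25, SE 0.40, adjusted p 0.00964). Without TBI replicate 6, the highest of its group, it was -2.83 (adjusted p 2.48e-04). The difference after IgG RIT (log2 fold change -0.77, SE 0.46) was not called (adjusted p 0.267), although it was without TBI replicate 6 in the fit (adjusted p 0.0407) and without scaling factors (-1.30, adjusted p 0.0310). After CD45 RIT, C4b rose 12.4-fold (log2 fold change 3.63, SE 0.50, adjusted p 2.57e-04).

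C2 encodes the serine protease that joins C4b in the C3-cleaving enzyme. It was at 5.52, 12.0, 2.14 and 1.56 CPM in untreated replicates 1 to 4, and at 1.84, 1.07, 0.381, 0.914 and 2.30 CPM in TBI replicates 1, 3, 4, 5 and 6. IgG RIT replicates 1 to 3 held 0.463, 0.299 and 0.158 CPM, from 8, 6 and 3 counts, and CD45 RIT replicates 1 and 2 held 95.2 and 44.2 CPM, from 1562 and 920 counts. The IgG RIT libraries were all below and the CD45 RIT libraries all above the untreated range, while the TBI range overlapped it. After IgG RIT C2 fell (log2 fold change -4.10, SE 0.90, adjusted p 0.0105), and after CD45 RIT it rose 13.1-fold (log2 fold change 3.71, SE 0.81, adjusted p 0.00468). The TBI value was -2.03 (SE 0.66) and was not called (adjusted p 0.108), except by DESeq2 (-1.86, adjusted p 0.0393). C2 shares 42.8% of its exonic bases on the same strand with Gm20547, a gene model that reads through from C2 into Cfb and had 0 counts in every library. All 3902 bases of Gm20547 lie in exons of C2 (1656) or Cfb (2246). It has no base of its own, so its 0 counts cannot show whether the readthrough transcript was present. If reads common to 2 genes were dropped, C2 was counted on only part of its exons.

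C3 (ENSMUSG00000024164.15, chromosome 17, 57203970 to 57228136, minus strand) encodes the protein on which all pathways meet. It was at 8.30, 12.1, 17.8 and 31.6 CPM in untreated replicates 1 to 4, and at 2.44, 3.52, 8.49, 2.30 and 6.89 CPM in TBI replicates 1, 3, 4, 5 and 6. It was at 1.04, 13.0 and 9.61 CPM in IgG RIT replicates 1 to 3 and at 21.6 and 117 CPM in CD45 RIT replicates 1 and 2. Only CD45 RIT replicate 2 lay above the untreated libraries, and replicate 1 lay within them. None of the differences from untreated was called by edgeR, although DESeq2 called the one after CD45 RIT (2.32, adjusted p 0.0334). By edgeR the log2 fold change was -1.89 (SE 0.72, adjusted p 0.179) after TBI, -1.14 (SE 0.84, adjusted p 0.370) after IgG RIT and 1.99 (SE 0.89, adjusted p 0.09999) after CD45 RIT. With CD45 RIT replicate 1 left out, the last of these was 2.73 and was called (adjusted p 0.0255), and with replicate 2 left out it was 0.28.

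Cfb (ENSMUSG00000090231.10, chromosome 17, 34856374 to 34862518, minus strand) encodes factor B, the alternative pathway counterpart of C2. It was near the limit of detection outside CD45 RIT. Untreated replicates 1 to 4 held 0.759, 0.508, 0.133 and 0.450 CPM, TBI replicates 1, 3, 4, 5 and 6 held 0.141, 0.0346, 0.0477, 0.0339 and 0.430 CPM (1 to 6 counts), and IgG RIT replicates 1 to 3 held 0.174, 0.0498 and 0.368 CPM (1 to 7 counts). CD45 RIT replicates 1 and 2 held 16.1 and 13.99 CPM, from 265 and 291 counts. Both thus stood above every other library, and the difference from untreated was the largest called among the 8 genes (32.1-fold, log2 fold change 5.00, SE 0.95, adjusted p 0.00208). The values after TBI (-1.85, SE 0.79, adjusted p 0.236) and IgG RIT (-1.22, SE 0.91, adjusted p 0.379) were not called. Gm20547 covers 79.5% of the exonic bases of Cfb, so a read from the readthrough transcript and a read from Cfb are mostly alike. If such reads were dropped, the counts of Cfb came from the remaining bases only.

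Cfd (ENSMUSG00000061780.6, chromosome 10, 79890853 to 79892655, plus strand) encodes factor D, or adipsin, the protease that cuts factor B and a classical product of adipocytes. It had 1, 36, 0 and 0 counts in untreated replicates 1 to 4, and 4, 4, 2, 3 and 8 counts in TBI replicates 1, 3, 4, 5 and 6. IgG RIT replicates 1 to 3 had 0, 13 and 0 counts, and CD45 RIT replicates 1 and 2 had 215 and 0. A single library thus carried the signal in the untreated, IgG RIT and CD45 RIT groups, and no difference was called. The CD45 RIT value (log2 fold change 4.54, SE 2.11, adjusted p 0.113) was -5.83 without CD45 RIT replicate 1, and it was called without CD45 RIT replicate 2 (5.53, adjusted p 0.0462) or untreated replicate 2 (8.77, adjusted p 0.0237). In CD45 RIT replicate 2 a count of 0 allows up to 0.144 CPM, against 13.1 CPM measured in replicate 1. The 8 adipocyte markers summed to 12947 to 16302 CPM in the CD45 RIT libraries and to at most 475 CPM in any other, and the sum came mostly from Lpl, Adipoq, Car3 and Fabp4, each high in both. Other adipocyte markers were not: Plin4 averaged 1.27 CPM in CD45 RIT and 1.06 CPM in untreated libraries, and Cidec had 0 to 10 counts in CD45 RIT. Cfd was detected in 1 of the 2 libraries with high Adipoq.

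Cfp (ENSMUSG00000001128.7, X chromosome, 20925454 to 20931555, minus strand) encodes properdin, which stabilises the alternative pathway enzyme and is made largely by neutrophils and other myeloid cells. It was at 18.6, 35.6, 28.6 and 32.7 CPM in untreated replicates 1 to 4, and at 1.95, 5.25, 4.62, 3.01 and 2.22 CPM in TBI replicates 1, 3, 4, 5 and 6. It was at 0, 5.48 and 2.73 CPM in IgG RIT replicates 1 to 3 and at 10.6 and 36.0 CPM in CD45 RIT replicates 1 and 2. Every TBI and IgG RIT library was below every untreated one, but the adjusted p was 0.0692 after TBI (log2 fold change -3.08, SE 0.87) and 0.0511 after IgG RIT (-3.40, SE 1.09), and neither was called. Both were called by DESeq2 (adjusted p 0.00435 and 0.00352) and with IgG RIT replicate 1 (adjusted p 0.00565 and 0.0298), CD45 RIT replicate 1 (0.0229 and 0.0177) or CD45 RIT replicate 2 (0.0243 and 0.0221) left out of the fit. In CD45 RIT the value was -0.31 (SE 1.09, adjusted p 0.841), or 0.017 with RLE factors, and its libraries overlapped the untreated ones.

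In TBI and IgG RIT libraries the summed neutrophil markers, like Cfp, lay below the untreated range. The untreated sums came mostly from Mpo and Elane, which averaged 7512 and 1106 CPM there. They averaged 432 and 66.5 CPM in TBI and 573 and 95.3 CPM in IgG RIT. Other members differed in direction after IgG RIT. S100a8 (105 to 1636 counts) and S100a9 averaged 34.0 and 32.1 CPM, against 10.3 and 6.04 CPM in untreated libraries. Cxcr2 and Cebpe averaged 0.066 and 0.533 CPM, against 11.5 and 9.99 CPM. In CD45 RIT Mpo had 1 to 4 counts and Elane 0 to 1, and 3 of 13 neutrophil markers were at 0 in both libraries, whereas Cfp was at 10.6 and 36.0 CPM. The 236 CPM of neutrophil markers in 1 of them came mostly from Mmp9, at 4508 counts, with 382 counts of Camp. The 12 macrophage markers summed to 565 to 1289 CPM in CD45 RIT and to at most 158 CPM elsewhere. The iron exporter gene Slc40a1 alone averaged 724 CPM in CD45 RIT. Hmox1, Cd68 and Axl also had higher means in CD45 RIT than in untreated libraries (86.8 against 3.32, 44.7 against 13.4 and 38.0 against 4.10 CPM). So did Timd4 (0 to 940 counts in CD45 RIT) and Mertk (0 to 282 counts). Other members were not higher in CD45 RIT. Csf1r averaged 2.75 CPM there against 45.4 CPM in untreated libraries and Cd163 0.024 against 7.40 CPM, and Adgre1, Marco and Spic were at 0 in both CD45 RIT libraries. The part of these cells in the Cfp level was not tested.

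Serping1 (ENSMUSG00000023224.12, chromosome 2, 84765387 to 84775444, minus strand) encodes C1 inhibitor, which blocks the proteases C1r and C1s that start the classical pathway. It was at 322, 404, 169 and 214 CPM in untreated replicates 1 to 4, and at 29.0, 15.6, 24.5, 10.2 and 61.3 CPM in TBI replicates 1, 3, 4, 5 and 6. IgG RIT replicates 1 to 3 held 68.0, 49.1 and 93.3 CPM, and CD45 RIT replicates 1 and 2 held 2499 and 3456 CPM. No treated group overlapped the untreated one: TBI and IgG RIT libraries were all lower, and CD45 RIT libraries all higher. Serping1 fell after TBI (log2 fold change -3.30, SE 0.47, adjusted p 0.00299) and after IgG RIT (-1.98, SE 0.55, adjusted p 0.0285), and it rose 10.7-fold after CD45 RIT (log2 fold change 3.43, SE 0.57, adjusted p 8.53e-04). The IgG RIT call was lost with RLE factors (-1.76, adjusted p 0.0538), without the filter (-1.85, adjusted p 0.0523) and without any 1 of untreated replicates 1 and 2 and IgG RIT replicates 1 and 2 (-1.96 to -1.74, adjusted p 0.0563 to 0.106).

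Cd55 (ENSMUSG00000026399.12, chromosome 1, 130439027 to 130462744, minus strand) encodes decay-accelerating factor, a membrane protein that breaks up C3-cleaving enzymes and is common on blood cells. It was at 13.2, 12.3, 29.0 and 27.3 CPM in untreated replicates 1 to 4, and at 28.4, 41.7, 36.1, 43.4 and 72.7 CPM in TBI replicates 1, 3, 4, 5 and 6. It was at 93.2, 39.3 and 52.5 CPM in IgG RIT replicates 1 to 3 and at 48.6 and 111 CPM in CD45 RIT replicates 1 and 2. Every RIT library was above every untreated one, and TBI replicate 1 overlapped the untreated range. Cd55 rose 3.02-fold after IgG RIT (log2 fold change 1.59, SE 0.45, adjusted p 0.0328) and 3.91-fold after CD45 RIT (1.97, SE 0.50, adjusted p 0.0101). Its TBI value of 1.12 (SE 0.41) was not called (adjusted p 0.157), except by DESeq2 (1.26, adjusted p 0.0478). The IgG RIT call was lost without scaling factors (1.06, adjusted p 0.0833) and without any 1 of untreated replicates 1 and 2 and IgG RIT replicates 1 and 3 (1.17 to 1.70, adjusted p 0.0549 to 0.149), and the CD45 RIT call without CD45 RIT replicate 2 (1.22, adjusted p 0.128). The 12 erythroid markers, none of them among the 8 genes, summed to 6722 to 12343 CPM in untreated, 23596 to 206710 CPM in TBI, 155691 to 177150 CPM in IgG RIT and 272705 and 61151 CPM in CD45 RIT replicates 1 and 2. TBI replicate 6 was the highest TBI library for both the erythroid sum and Cd55, whereas in CD45 RIT the library with the lower erythroid sum had the higher Cd55, and the part of erythroid cells in Cd55 was not tested. The neighbouring copy Cd55b had at most 1 count in any library, and 10.7% of the 50-base stretches of the Cd55 transcript occurred in it.

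**Figure D3:**
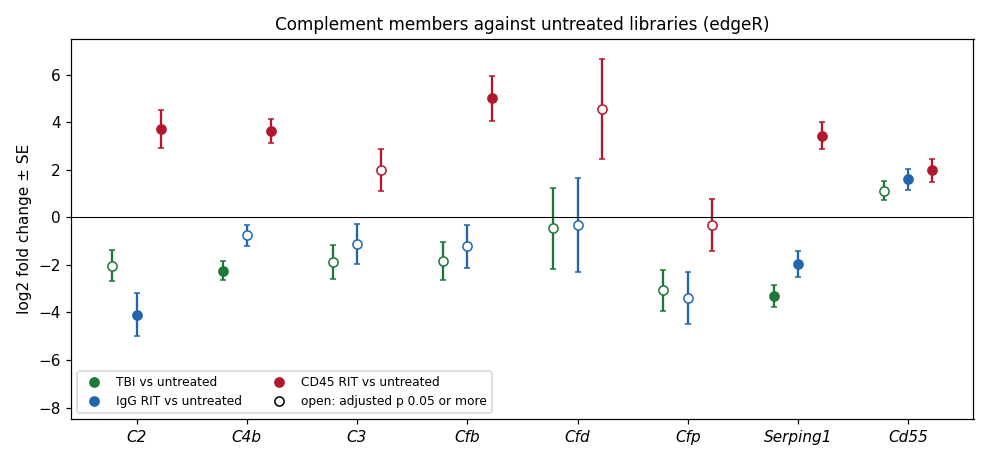
Log2 fold changes against untreated libraries with their SE (edgeR), for each of the 8 complement genes after TBI, IgG RIT and CD45 RIT; filled points have an adjusted p under 0.05. Of the 8 genes, Cd55 alone has positive values in all 3 comparisons, and C2, C4b and Serping1 have negative values after TBI and IgG RIT and positive values after CD45 RIT.

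The treatments were then set against one another. CD45 RIT exceeded IgG RIT, which gave the same activity without a target, for 5 of the 8 genes, where 37.7% of all genes were called (20.2% higher and 17.5% lower). On the log2 scale C2 was higher by 7.81 (SE 1.08, adjusted p 2.01e-04), Cfb by 6.22 (SE 1.15, adjusted p 0.00134), Serping1 by 5.41 (SE 0.68, adjusted p 1.00e-04), C4b by 4.40 (SE 0.57, adjusted p 1.30e-04) and C3 by 3.13 (SE 0.99, adjusted p 0.0263). The C3 call was lost without CD45 RIT replicate 2 (1.22, adjusted p 0.383) and without IgG RIT replicate 1 (2.61, adjusted p 0.0527) or 3 (3.30, adjusted p 0.0571). Cfp also lay higher in both CD45 RIT libraries than in the 3 IgG RIT libraries, but was not called (3.08, SE 1.16, adjusted p 0.0526), except with RLE factors (3.20, adjusted p 0.0468), by DESeq2 (adjusted p 0.00958) and without CD45 RIT replicate 1 (3.70, adjusted p 0.0163) or IgG RIT replicate 1 (2.50, adjusted p 0.0216) or 2 (4.08, adjusted p 0.0428).

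CD45 RIT exceeded TBI for 6 of the 8 genes, where 38.6% of all genes were called (19.6% higher and 19.0% lower). Of all called genes 50.9% were higher after CD45 RIT, and 33.5% without scaling. The log2 fold changes were 6.85 for Cfb (SE 0.95, adjusted p 1.57e-04), 6.73 for Serping1 (SE 0.58, adjusted p 4.16e-06), 5.88 for C4b (SE 0.49, adjusted p 3.75e-06), 5.75 for C2 (SE 0.80, adjusted p 1.53e-04), 3.87 for C3 (SE 0.84, adjusted p 0.00351) and 2.77 for Cfp (SE 0.97, adjusted p 0.0401). Without CD45 RIT replicate 2 neither the C3 value (2.05) nor the Cfp value (1.51) was called. The Cfp call was lost in 10 of the 14 fits that left out 1 library, and its adjusted p in those 10 was at least 0.0506. Cd55 did not separate these groups: CD45 RIT differed from IgG RIT by 0.37 (SE 0.54, adjusted p 0.605) and from TBI by 0.85 (SE 0.48, adjusted p 0.175).

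Between IgG RIT and TBI 0 of the 8 genes were called by edgeR, where 0.242% of all genes were called (0.0697% higher and 0.172% lower; 28.8% of the calls were higher after IgG RIT, and 11.3% without scaling). At an unadjusted p under 0.05 in edgeR there were 3 of the 8 (C2, C4b and Serping1), beside 3984 of all 21509 genes. DESeq2 called 1 of the 8, C4b, beside 2085 of all genes. These counts changed with the libraries in the fit. Without TBI replicate 6, C4b was higher after IgG RIT by 2.07 (adjusted p 9.65e-04) and Serping1 by 1.83 (adjusted p 0.0157), and 2024 of all genes were called in place of 52. Without CD45 RIT replicate 1 or 2, which are not in the comparison but share its estimate of the spread, 2144 and 1910 genes were called, and C4b was called in the first of these fits (1.49, adjusted p 0.0447).

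Levels were compared between the genes as CPM per kilobase of the deposited gene length. For C2 and Cfb this length includes bases shared with Gm20547 (42.8% and 79.5%). Gm20547 had 0 counts, so reads on these bases were not counted for every gene they overlap. Whether they were counted for C2 and Cfb is not given in the sources used here. If they were dropped, the levels of C2 and above all Cfb below are too low, so their places in the orders are uncertain. In untreated libraries the group means were 119 for Serping1, 16.6 for Cfp, 9.94 for C4b, 4.21 for Cd55, 3.39 for C3, 1.37 for C2, 0.299 for Cfd and 0.164 for Cfb. Of neighbours in this order, Serping1 and Cfp did not overlap between libraries, nor did C4b and Cd55, and all other neighbours did. In TBI the order was Serping1 (12.1), Cd55 (9.16), C4b (2.10), Cfp (1.97), C3 (0.919), C2 (0.336), Cfd (0.228) and Cfb (0.0487), where only Cd55 and C4b did not overlap. In IgG RIT it was Serping1 (30.2), Cd55 (12.7), C4b (5.84), Cfp (1.58), C3 (1.53), Cfd (0.234), C2 (0.0791) and Cfb (0.0697), where Serping1 and Cd55, Cd55 and C4b, and C4b and Cfp did not overlap. In CD45 RIT the order was Serping1 (1281), C4b (123), C2 (18.0), Cd55 (16.5), C3 and Cfp (13.4 each), Cfd (7.10) and Cfb (5.33), where Serping1 and C4b, and C4b and C2, did not overlap. As a share of the summed level of the 8 genes per length, Serping1 took a median of 75.0% in untreated, 44.1% in TBI, 52.7% in IgG RIT and 86.7% in CD45 RIT libraries. Cd55 took 2.93%, 31.1%, 20.2% and 1.07% in the same order. All TBI and IgG RIT libraries had a larger share of Cd55 and a smaller share of Serping1 than any untreated library.

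The summed stromal markers, like C4b and Serping1, were below the untreated range in all TBI and IgG RIT libraries and above it in both CD45 RIT libraries. Each gene was therefore also expressed per 1000 counts of the 15 stromal markers. On that scale the CD45 RIT libraries no longer stood above the untreated ones for most genes. C4b was at 8.91 to 13.8 in untreated and 10.8 to 11.5 in CD45 RIT libraries, and Serping1 at 34.5 to 72.9 and 44.8 to 50.5. C2 was at 0.252 to 2.16 and 0.573 to 1.92. Cfb remained higher in both CD45 RIT libraries (0.181 to 0.326, against 0.0466 to 0.109 in untreated), and Cd55 (0.983 to 1.44 against 1.89 to 10.1) and Cfp (0.214 to 0.466 against 2.66 to 9.99) were lower in both.

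After IgG RIT, C4b stood at 24.8 to 55.2 per 1000 stromal counts and Cd55 at 39.3 to 86.5, both above the untreated range. Cfb (0.1095 to 0.275) lay just above the highest untreated library (0.1086), but from only 3, 1 and 7 counts in IgG RIT replicates 1 to 3. For Cfb, IgG RIT replicate 3 (0.275) and TBI replicate 6 (0.311, from 6 counts) exceeded CD45 RIT replicate 2 (0.181). After TBI Cd55 (14.7 to 52.5) was also above the untreated range. Serping1 after TBI ran from 6.11 to 44.3 and overlapped the untreated range. These ratios carry no test, and the part of a changed share of stromal cells in the CPM differences was not tested.

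**Figure D4:**
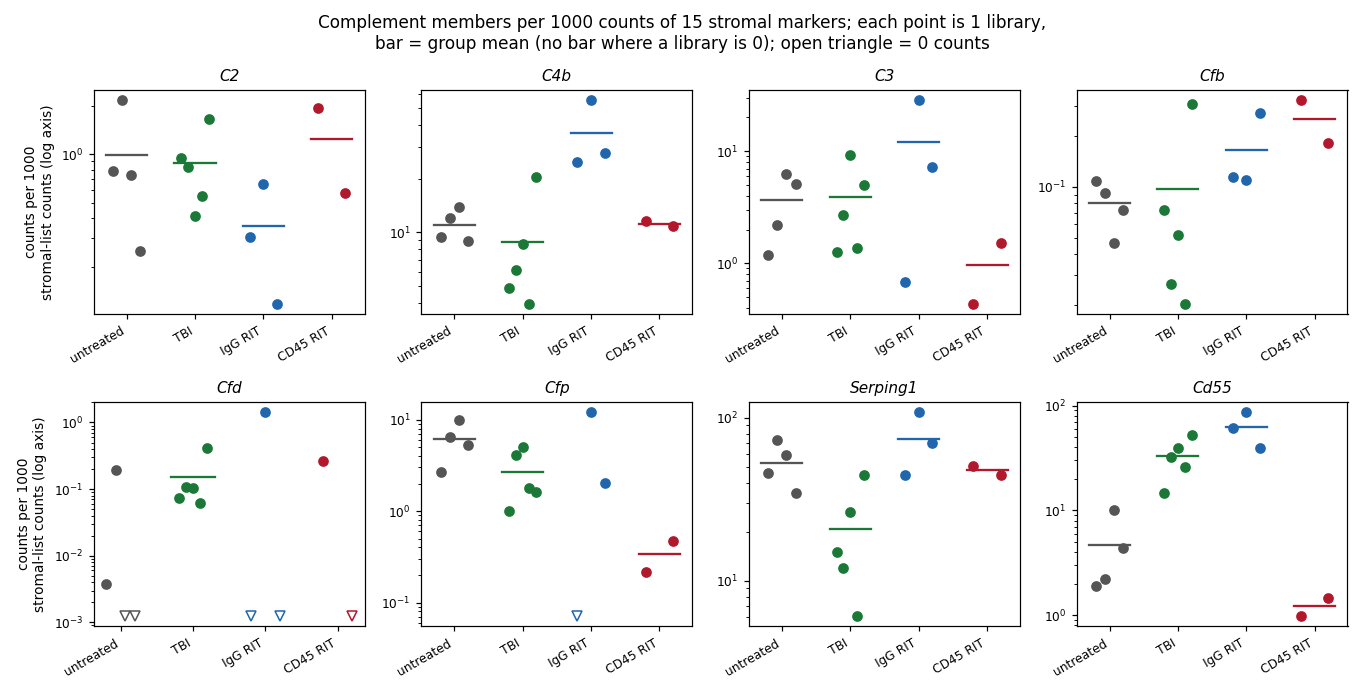
Counts of each complement gene per 1000 counts of 15 stromal markers (vertical log axes), by treatment group; each point is 1 library, bars are group means and are left out where a library is at 0, and open triangles stand for 0 counts. The CD45 RIT libraries lie within the untreated range for C2, C4b and Serping1, above it for Cfb and below it for Cd55 and Cfp.

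Other genes of the system were read from a list of 51 genes, of which 33 were tested. After CD45 RIT 14 rose and 8 fell, where 14.5% of all genes rose and 18.6% fell. After TBI 0 rose and 7 fell (0.921% and 3.38% of all genes), and after IgG RIT 3 rose and 8 fell (5.75% and 10.7%). At the start of the classical and lectin pathways 11 of 16 genes were tested, and 6 rose and 2 fell after CD45 RIT. C1ra, the protease C1r, averaged 22.3 CPM in untreated and 387 CPM in CD45 RIT libraries (log2 fold change 4.12, SE 0.50, adjusted p 1.12e-04). C1s1, its partner C1s, averaged 19.0 and 198 CPM (3.38, SE 0.60, adjusted p 0.00135), and the scavenger receptor gene Colec12 27.5 and 523 CPM (4.25, SE 0.47, adjusted p 5.56e-05).

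The C1q chains are made mainly by macrophages and behaved unevenly. C1qb was at 18.5 and 56.4 CPM in CD45 RIT replicates 1 and 2 and at most at 1.11 CPM in untreated libraries (6.00, SE 1.06, adjusted p 0.00128). C1qa had 258 and 0 counts in CD45 RIT replicates 1 and 2 and 0 in all untreated libraries, and C1qc had 2 and 637. C1qa was not called without CD45 RIT replicate 1, nor C1qc without replicate 2 (-0.69) or without untreated replicate 4. The called falls were Masp2, a protease of the lectin pathway (-4.34, SE 0.79, adjusted p 0.00142), and the ficolin gene Fcnb, at 0 in both CD45 RIT libraries and at least 11.1-fold lower, which was not called without CD45 RIT replicate 2 (adjusted p 0.0538).

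Among soluble regulators the clusterin gene Clu rose after CD45 RIT. Clu averaged 91.6 CPM in untreated and 1018 CPM in CD45 RIT libraries (3.47, SE 0.74, adjusted p 0.00413). Of 10 membrane regulators 7 were tested and 4 rose: Cd46 by 3.67 (SE 0.65, adjusted p 0.00121), Thbd by 2.65 (SE 0.56, adjusted p 0.00372), Csmd1 by 2.74 (SE 0.91, adjusted p 0.0361) and Cr1l by 0.84 (SE 0.20, adjusted p 0.00802). The Cr1l call was lost without scaling factors (0.16) and without CD45 RIT replicate 2, and Csmd1 lost its call in 6 of 19 alternatives. In the terminal part, C6 rose (5.57, SE 1.64, adjusted p 0.0213, not called without untreated replicate 3), and C8g was at 0 in both CD45 RIT libraries and at least 19.9-fold lower.

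Of 8 receptor genes tested, 5 fell after CD45 RIT (18.6% of all genes did, and 14.5% rose) and C5ar2, a receptor for the C5a fragment, rose (5.20, SE 1.12, adjusted p 0.00425). The falls were in the C3a receptor gene C3ar1 (at least 22.4-fold lower), the leukocyte integrin genes Itgax (at least 23.2-fold), Itgb2 (at least 289-fold) and Itgam (-3.98, SE 1.29, adjusted p 0.0331), and C1qbp (-2.28, SE 0.45, adjusted p 0.00254). C3ar1, Itgax and Itgb2 were at 0 counts in both CD45 RIT libraries. The Itgam call was lost in 5 and the Itgax call in 3 of 19 alternatives, and both were lost when either CD45 RIT library was left out. Summed haematopoietic markers were at 253 to 561 CPM in CD45 RIT and 2167 to 2537 CPM in untreated libraries. Of this list Runx1 went the other way, averaging 173 CPM in CD45 RIT and 62.1 CPM in untreated libraries. The part of haematopoietic cells in these falls was not tested.

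After TBI the largest falls on the list were Csmd1 (-4.49, SE 0.84, adjusted p 0.0114), Colec12 (-2.75, SE 0.38, adjusted p 0.00277), Clu (-2.48, SE 0.61, adjusted p 0.0393) and C1ra (-2.41, SE 0.41, adjusted p 0.00675). The Clu call was lost in 10 of 19 alternatives. After IgG RIT the rises were in Cd59a, which blocks the terminal pore (1.77, SE 0.40, adjusted p 0.0125), in Cr1l (1.10, SE 0.18, adjusted p 0.00356) and in C1qa (at least 5.05-fold higher), whose call was lost in 13 of 19 alternatives. Fcnb, Colec11 and C3ar1 were at or under 3 counts in all IgG RIT libraries and at least 11.7-fold, 7.87-fold and 23.5-fold lower, and the Colec11 call was lost in 12 of 19 alternatives.

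**Figure D5:**
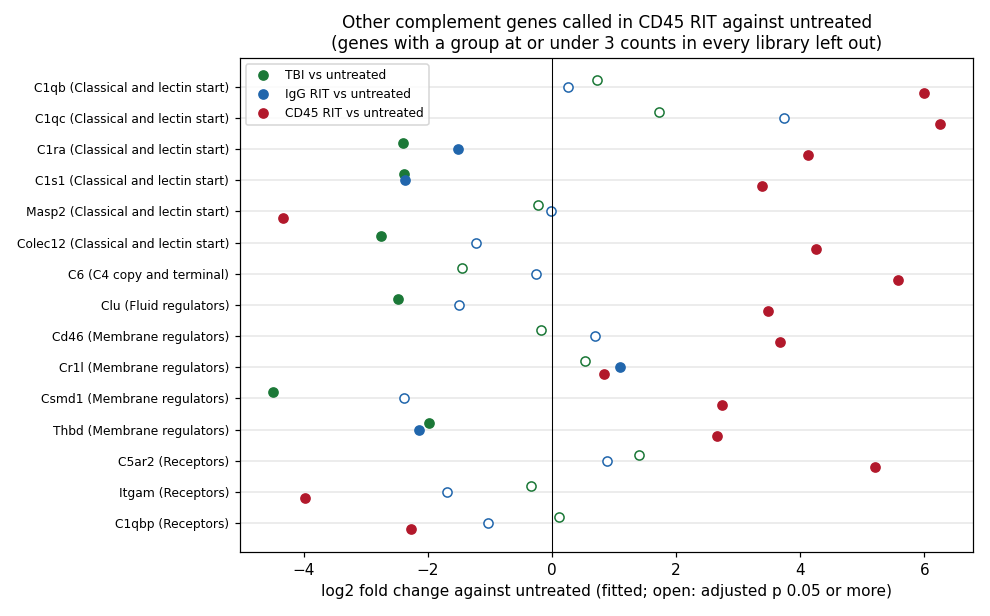
Fitted log2 fold changes against untreated libraries for listed complement genes called after CD45 RIT, with the list of each gene in brackets; filled points have an adjusted p under 0.05, and genes at or under 3 counts in every library of a group are left out. C1ra, C1s1, Colec12, C6, Clu, Thbd and Csmd1 have positive values after CD45 RIT and negative values after TBI and IgG RIT.

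A separate list of 18 genes held receptors, transcription factors and feedback genes of the interferon, NF-kB and IL-6 family signals that are known to induce complement genes. All 18 were tested, and 14 rose and 0 fell after CD45 RIT, beside 14.5% and 18.6% of all genes. The largest rises were in Osmr, the oncostatin M receptor (4.55, SE 1.49, adjusted p 0.0338; lost in 4 of 19 alternatives), and Socs3, a feedback inhibitor of STAT signals (4.16, SE 0.60, adjusted p 3.46e-04). Socs3 was at 382 and 496 CPM in CD45 RIT libraries and at 15.9 to 34.0 CPM in untreated ones. Relb (3.05, SE 0.55, adjusted p 0.00142), Irf1 (2.49, SE 0.54, adjusted p 0.00456) and Cebpb (2.26, SE 0.33, adjusted p 3.29e-04) also rose, whereas Nfkb1 was at -0.35 (adjusted p 0.740) and Rela at -0.37 (adjusted p 0.339). After TBI (0.921% of all genes higher, 3.38% lower) 0 rose and 4 fell, among them Tnfrsf1a, a receptor for tumour necrosis factor (-2.49, SE 0.34, adjusted p 0.00220), and after IgG RIT (5.75% higher, 10.7% lower) 1 rose, Irf9 (1.49, SE 0.24, adjusted p 0.00282), and 7 fell, among them Irf1 (-2.77, SE 0.55, adjusted p 0.00706).

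Binding motifs of such factors were looked for in the 250 bases before the start of the members. RefSeq promoters (GRCm38.p6) matched 4 of the 8 genes: C3, Cd55, Cfd and Cfp. Both strands were searched for GAAA and GAAA spaced by 2 bases (interferon response), TTC and GAA spaced by 3 (STAT), TTGC and AA spaced by 2 (C/EBP), and GGGA and CC spaced by 4 (NF-kB), which occurred in 2.97%, 7.01%, 9.57% and 17.6% of 32817 promoters. C3 and Cd55 are shown because only they held a match, and because C3 was high in 1 CD45 RIT library alone while Cd55 was higher than in untreated libraries after both forms of RIT. Capitals mark the matches, and each sequence runs 5′ to 3′ on the minus strand of the chromosome, C3 from chr17:57228137-57228386 and Cd55 from chr1:130462745-130462994.
C3: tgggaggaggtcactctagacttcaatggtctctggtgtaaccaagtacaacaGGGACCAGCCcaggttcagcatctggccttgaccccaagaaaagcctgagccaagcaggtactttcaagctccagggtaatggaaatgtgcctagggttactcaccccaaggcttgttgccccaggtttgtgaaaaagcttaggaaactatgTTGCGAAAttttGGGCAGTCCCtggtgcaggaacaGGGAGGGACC
Cd55: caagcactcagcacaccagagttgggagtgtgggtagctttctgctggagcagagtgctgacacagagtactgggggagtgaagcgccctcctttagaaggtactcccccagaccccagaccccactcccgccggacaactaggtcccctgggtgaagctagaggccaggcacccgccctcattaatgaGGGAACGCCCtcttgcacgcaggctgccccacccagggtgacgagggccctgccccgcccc
C3 held the C/EBP letters once, at base -45 counted from the start, and the NF-kB letters 3 times, at -197, -33 (read on the minus strand) and -10. Cd55 held the NF-kB letters once, at -61. No interferon response or STAT letters lay in the 4 windows.

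For each gene the 3 other protein-coding genes with the most similar course over the 14 libraries were found among 13411 genes, by the root mean square difference of centred log2 CPM. For C4b they were Gpx3 (0.30), Kng1 (0.34) and Ecm1 (0.38). Gpx3 ran from 248 to 462 CPM in untreated, from 35.0 to 221 CPM in TBI, from 147 to 240 CPM in IgG RIT and from 3997 to 5329 CPM in CD45 RIT libraries. Serping1 was followed most closely by Igfbp7 (0.39), Fcgrt (0.43) and Loxl1 (0.44), and Cfb by Socs3 (0.46) and Nupr1 (0.53). Cd55 was closest to Usp25 (0.28), Stk17b (0.34) and Acsl1 (0.41). None of these was among the closest 3 of another member, and the same held for every other member. Nearest to C2 were Twist1 (0.70), Dlx6 (0.82) and Tmem45a (0.89), and to C3 Ccdc17 (0.87), Cd68 (0.90) and Tha1 (0.91). Among the members themselves, C4b and Serping1 differed by 0.60 and C4b and Cfb by 0.73, while Cd55 differed from C4b by 2.03. These distances describe the libraries and carry no test.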

How the data were processed

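Per the labels' protocols, RNA from a Qiagen micro-scale kit was amplified with SMART-Seq v4 reagents and tagged for sequencing with Nextera XT. The authors deposited 1 table of raw counts per gene, without normalization as far as the values show. The submitters' processing notes name STAR 2.7.7a, FastQC 0.11.9 and edgeR 3.36.0, and a human build, hg38, although the gene identifiers are mouse: 54587 of 55335 matched GENCODE M21 (GRCm38), and those 54587 had the same coordinates, so positions are given on GRCm38. The counting tool, the use of strand and the handling of reads common to several genes are not given in the sources used here. The libraries carry no molecular identifiers, so limits from counts cover counting error only.

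Tests used edgeR 4.0.16 under R 4.3.3. Low genes were removed by filterByExpr given the groups (minimum count 10, total 15). One quasi-likelihood model with a coefficient per group and robust dispersions was fitted to all 14 libraries on TMM-scaled library sizes. The 6 comparisons between groups were each adjusted by the Benjamini-Hochberg method over all tested genes, and an adjusted p under 0.05 was called. The SE was taken as |log2 fold change| over the root of F. Where every library of a group was at or under the floor of 3 counts, a fold is a bound against 3 counts per library. Marker sums are in CPM. The procedure was tested on simulated data.

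Alternatives were RLE factors, no scaling, no filter, DESeq2 1.42.0, the replicate number as a block, each library left out, and members summed with their copies. The complement genes, the gene lists and the tests were chosen with earlier results of these data known. Named were all 8 members, the copies C4a and Cd55b, the sort marker Cdh5, listed genes called after CD45 RIT against untreated and, in other comparisons, up to 5 listed genes per direction with the largest changes. Marker genes were named to describe the libraries. Values of some genes are not reported here. Motifs and promoters were read from RefSeq (GRCm38.p6).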

Additional observations from a re-analysis of the deposited data

Results flagged for a closer look

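Each of the 8 genes was looked at in the untreated group (4 libraries) and the TBI group (5 libraries). In 4 of these 16 sets 1 library stood apart from the rest by Dixon's criterion. For independent, normally distributed values chance alone gives about 1 in 20. The sets share libraries and some hold counts near 0, so the number flagged cannot be set against that rate. TBI replicate 6 was the highest TBI library at 28.0 CPM of C4b (the next was 9.34), at 0.430 CPM of Cfb and at 0.574 CPM of Cfd, the last 2 from 6 and 8 counts. Untreated replicate 2 was the highest of its group for Cfd, at 1.08 CPM from 36 counts.

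The effects of CD45 RIT differed from those of the other treatments by the direct comparison of the groups (edgeR, adjusted p under the threshold of 0.05). On the log2 scale CD45 RIT exceeded IgG RIT by 7.81 for C2, 4.40 for C4b, 3.13 for C3, 6.22 for Cfb and 5.41 for Serping1. It exceeded TBI by 5.75 for C2, 5.88 for C4b, 3.87 for C3, 6.85 for Cfb, 2.77 for Cfp and 6.73 for Serping1. The summed stromal markers also lay higher in both CD45 RIT libraries than in all others, and their part in these differences was not tested.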

How the results depend on the processing

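C2, C4b, Cfb and Serping1 stayed called after CD45 RIT against untreated, IgG RIT and TBI under all 19 alternatives. Leaving out 1 library gave 422 to 2803 called genes in TBI against untreated (926 with all), 1774 to 7361 in IgG RIT (3536), 5840 to 11346 in CD45 RIT (7116) and 2 to 2144 in IgG RIT against TBI (52); members called ran from 2 to 3, 1 to 4, 5 to 6 and 0 to 2. DESeq2 called 2485 genes and 5 members after TBI, 5942 genes after IgG RIT, and 2085 genes and 1 member in IgG RIT against TBI, where no scaling gave 203 genes.

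Same-numbered libraries did not deviate together (r -0.09 to 0.14 over 13 pairs), so the numbers were not taken as pairs. The replicate block gave 38 called genes and 1 member after TBI, 2063 genes after IgG RIT, 4062 after CD45 RIT, and 5098 and 3756 in CD45 RIT against IgG RIT and TBI. The members not called under the block were Serping1 after TBI (-3.49, adjusted p 0.0560), Cd55 after IgG RIT (1.81, adjusted p 0.0774) and Cfp in CD45 RIT against TBI (2.32, adjusted p 0.264). Under the block the log2 fold change of Cfd was 2.59 after TBI and -3.13 in IgG RIT against TBI (-0.11 without scaling). Cfp after CD45 RIT was 0.017 with RLE factors and 0.017 with DESeq2.

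Direction was not stable across fits that each left out 1 library for Cfd (-1.18 to 3.77 after TBI, -5.82 to 3.90 after IgG RIT, -5.83 to 8.77 after CD45 RIT, -5.49 to 10.36 against IgG RIT, -5.40 to 5.83 against TBI, -5.36 to 0.85 in IgG RIT against TBI), Cfp (-1.48 to 0.30 after CD45 RIT, -1.31 to 0.26 in IgG RIT against TBI), Cd55 (-0.57 to 0.85 against IgG RIT and -0.037 to 1.31 against TBI for CD45 RIT) and Cfb (-0.18 to 1.53 in IgG RIT against TBI). Other scaling moved the median of all genes by up to -0.71 (CD45 RIT, no scaling); the causes were not tested.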
